A study of Mus musculus with 4 samples.

Results

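The comparison described here set dorsal skin of mice given IL-17A mini-circle DNA without IMQ against dorsal skin of mice given GFP mini-circle DNA with IMQ, each treatment on its own. It used 2 of the 4 arrays of the study, chosen by their labels. All mice were C57BL/6J animals aged 8 to 12 weeks. Each array measured total RNA from a pool of 6 mice. A mini-circle is a small circular DNA from which an injected animal's own cells make the encoded protein. The labels give neither the tissue that expressed it nor the promoter that drove it. IMQ is read here as imiquimod, which activates an endosomal Toll-like receptor and is used on mouse skin to provoke psoriasis-like inflammation. The labels give no dose, route or schedule for it. The remaining arrays, GFP mini-circle DNA without IMQ and IL-17A mini-circle DNA with IMQ, are given beside many of the values, though not all, as reference levels. The skin of the IMQ array had also received GFP DNA, so the arrays differ in the injected DNA and in IMQ at once.

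IL-17A is a cytokine made mainly by T cells that acts through a receptor on keratinocytes and other stromal cells. Keratinocytes answer it with antimicrobial proteins and chemokines that draw in neutrophils, a program that is prominent in psoriasis. Imiquimod acts further upstream in the usual account: it engages an endosomal receptor of dendritic cells and macrophages, and the cytokines they release lead T cells to make IL-17A. The comparison therefore places the skin with supplied cytokine beside the skin with the upstream agent.

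Of 34885 probes with 1 gene symbol, 18705 were above background on at least 1 of the 2 arrays, and they represented 12139 genes. Each side had 1 array and no replicate, so every value below is a size without a test, and higher and lower describe these pools. Differences are log2 IL-17A minus log2 GFP with IMQ after normalization, which added 50 to the corrected signal and so shrinks the differences of dim genes. Signals quoted for single genes are the deposited intensities before normalization. Of these genes 57 passed 2-fold toward IL-17A skin (0.47%) and 4 toward GFP with IMQ skin (0.033%), 61 together (0.503%). At 1.5-fold the counts were 150 (1.24%) and 90 (0.741%), 240 together (1.98%), so 98.0% of genes lay within 1.5-fold. Counts of genes on a list, below, can be read against these shares. The median difference was 0.01 and the largest 8.30-fold.

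**Figure D1:**
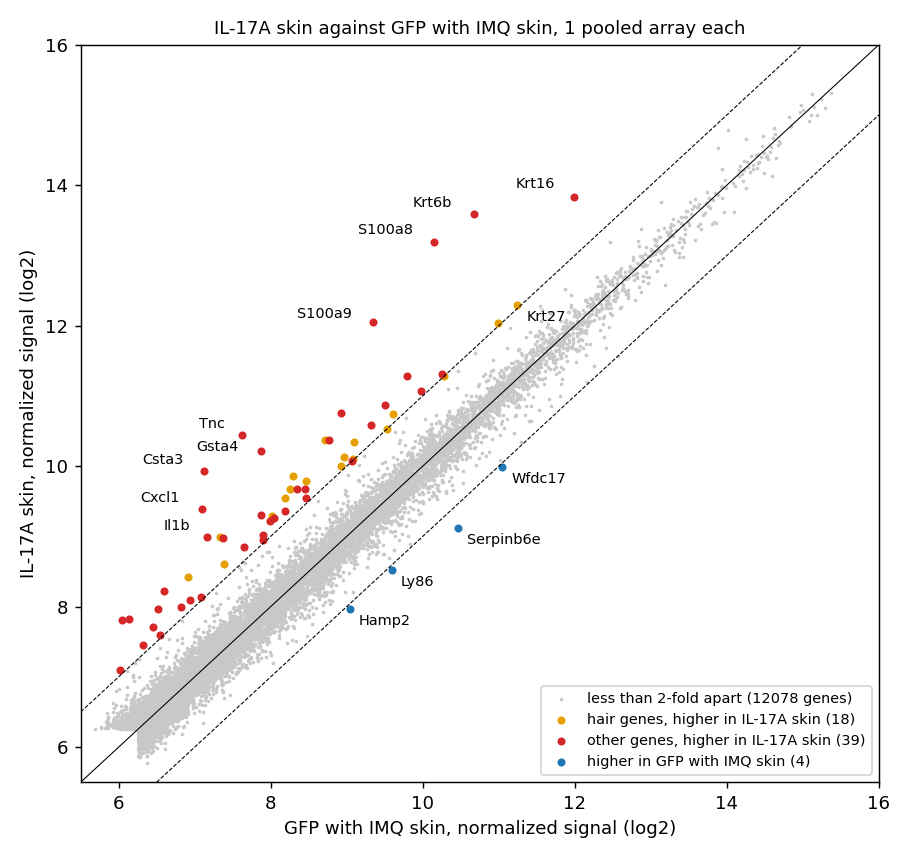
Normalized log2 signal of 12139 genes in GFP with IMQ skin (horizontal axis) and IL-17A skin (vertical axis), 1 pooled array each. The solid line marks equality and the dashed lines 2-fold. The 57 genes above the upper dashed line include S100a8 and Krt6b, and 4 genes lie below the lower one.

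The tissue was skin on both arrays by its defining markers. Krt14, a keratin of basal keratinocytes, had signals of 35096.5 in IL-17A and 38420.4 in GFP with IMQ skin, and Lor, which encodes the envelope protein loricrin, 32684 and 34149. Muscle RNA was present on both, with the actin gene Acta1 at 40234 and 34584. The 24 skeletal muscle genes had a median difference of 0.11, the 14 adipocyte genes -0.02, the 19 endothelial genes 0.04 and the 5 erythroid genes 0.23, with 0 of any of these lists past 2-fold. Actn3, an actinin of fast muscle fibres, stood at 0.48, the adipocyte hormone gene Lep at 0.44, Cldn5, of endothelial junctions, at -0.46, and the alpha globin gene Hba-a1 at 0.36. The Il17a probe read 7.98 in IL-17A and 11.01 in GFP with IMQ skin, below the limits of 12.6 and 11.6. It read 11.07 in GFP skin, below the limit of 12.7, and 14.37 in IL-17A with IMQ skin, above the limit of 11.8. No source says whether it detects the mini-circle's transcript, and the labels were not checked by it.

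Promoters of some of the genes that were high together are shown. They were picked from a larger set of windows, and each one printed holds a motif described below. RefSeq promoter windows (GRCm38.p6, 250 bases before to 50 after the start) were held for 31 of the 39 genes higher in IL-17A skin outside the hair group. Below are those of the neighbouring chemokine genes Cxcl1 (chr5:90890995-90891294, plus strand) and Cxcl2 (chr5:90903649-90903948, plus strand), the calprotectin gene S100a9 (chr3:90695672-90695971, minus strand) and the lipocalin gene Lcn2 (chr2:32387690-32387989, minus strand). Capitals mark kappaB-type letters (GGGA, any 4 bases, then CC) in Cxcl1 and Cxcl2 and C/EBP-type letters TTGCNNAA in S100a9 and Lcn2, on either strand. No match of one motif overlaps a match of another in these windows.
Cxcl1: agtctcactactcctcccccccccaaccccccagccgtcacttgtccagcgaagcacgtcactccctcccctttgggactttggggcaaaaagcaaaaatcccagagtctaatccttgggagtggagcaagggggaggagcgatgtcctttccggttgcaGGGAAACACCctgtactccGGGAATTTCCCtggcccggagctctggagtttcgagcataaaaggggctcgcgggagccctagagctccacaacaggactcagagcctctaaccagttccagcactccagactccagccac
Cxcl2: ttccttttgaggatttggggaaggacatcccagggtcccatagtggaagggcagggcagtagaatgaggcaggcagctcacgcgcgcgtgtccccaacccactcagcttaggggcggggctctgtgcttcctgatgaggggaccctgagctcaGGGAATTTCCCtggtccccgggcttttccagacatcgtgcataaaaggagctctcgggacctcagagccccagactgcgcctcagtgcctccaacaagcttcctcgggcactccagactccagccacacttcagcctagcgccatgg
S100a9: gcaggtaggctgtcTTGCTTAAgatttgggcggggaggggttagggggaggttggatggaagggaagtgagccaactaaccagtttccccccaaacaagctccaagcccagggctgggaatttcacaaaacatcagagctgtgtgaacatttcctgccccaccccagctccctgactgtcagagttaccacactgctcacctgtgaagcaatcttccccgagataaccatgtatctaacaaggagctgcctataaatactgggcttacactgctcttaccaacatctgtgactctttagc
Lcn2: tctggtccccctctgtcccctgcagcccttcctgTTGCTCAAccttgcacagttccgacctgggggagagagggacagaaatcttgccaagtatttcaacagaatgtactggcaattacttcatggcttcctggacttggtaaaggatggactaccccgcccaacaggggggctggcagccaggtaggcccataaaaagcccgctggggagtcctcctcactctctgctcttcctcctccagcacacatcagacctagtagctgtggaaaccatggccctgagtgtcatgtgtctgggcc
These motifs were searched because NF-kappaB and C/EBP proteins act below the IL-17 receptor. The kappaB matches began 90, 71 and 70 bases before the start of Cxcl1, the last pair overlapping each other, and 97 and 96 bases before that of Cxcl2. The C/EBP match began 236 bases before the start of S100a9 and 216 before that of Lcn2. Over all 35 windows of these genes, 20% held the kappaB letters, against 26% of the windows of all genes measured and 20.7% of all windows. The C/EBP letters were in 17.1%, against 9.21% and 10.8%, and the AP-1 letters TGANTCA in 8.57%, against 6.02% and 7.81%. Among windows not printed, those of S100a8, Tnc, Il1b, Stfa2 and Timp1 held none of these letters. Windows of Csta3, Il33 and Retnlg held the C/EBP letters and that of Gjb2 the kappaB letters. A match is a description of letters and says nothing of binding. The kappaB letters were thus no more common near these genes than elsewhere, and the C/EBP share rests on 6 windows.

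Several genes that keratinocytes turn on in response to IL-17A were higher in IL-17A than in GFP with IMQ skin. S100a8, which encodes a subunit of the antimicrobial protein calprotectin, differed most under the offset of 50. With the authors' values Csta3 lay above it (3.25 against 3.11), as it did with an offset of 16 (3.16 against 3.09), and without further background correction Wfdc2 (4.02), Nppb (3.99), Csta3 (3.60) and Tnc (3.31) exceeded S100a8 (3.13). The signal of S100a8 was 9773 in IL-17A and 974 in GFP with IMQ skin, beside 1010.5 in GFP and 21448 in IL-17A with IMQ skin. GFP with IMQ skin was thus near GFP skin, and the IL-17A value was 8.30-fold higher than it after normalization. S100a9, the partner subunit, read 4357 in IL-17A, 532 in GFP with IMQ, 546 in GFP and 9479 in IL-17A with IMQ skin, a 6.52-fold difference with the same order of the 2 IL-17A arrays above the others. Lcn2, an iron-binding antimicrobial protein, differed in that GFP with IMQ skin stood above GFP skin: 1547 in IL-17A, 522 in GFP with IMQ, 293 in GFP and 3228 in IL-17A with IMQ skin, 2.40-fold. Of 23 measured genes on the IL-17-responsive list, 5 passed 2-fold toward IL-17A skin and 0 the other way, 22 were above 0, and the median was 0.51 against 0.01 over all genes. The 5 include Cxcl2, whose fold is only a bound, and the count was 9 with the authors' values, 8 with an offset of 16 and 10 without further background correction. At 1.5-fold, 10 were higher and 0 lower. The median was 0.47 with dim genes set at their bound. Genes just short of 2-fold were the acute-phase gene Saa1 at 0.99, the protease inhibitor gene Slpi at 0.92 and the cytokine gene Il19 at 0.84, the last below its limit in GFP with IMQ skin. Steap4 alone was below 0, at -0.13, close to background on both arrays. Ccl20, a chemokine for IL-17-producing cells, was dim on both arrays and differed by 0.07.

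The IL-17 receptor pathway itself differed little. Of its 21 measured genes 0 passed 2-fold and 0 passed 1.5-fold, with a median of 0.11. Nfkbia, an inhibitor of NF-kappaB, stood at 0.43, the receptor subunit gene Il17rc at 0.38 and Zc3h12a, an RNase that limits inflammatory transcripts, at 0.31. In the list of the IL-23 and IL-17 axis 8 of 15 genes on the array were measurable, with 0 past 2-fold and a median of -0.04. Its transducer gene Stat3 was at 0.33, the kinase gene Tyk2 at -0.30 and Il23a, a subunit of IL-23, at -0.18, the last with signals of 15.8 in IL-17A and 24.4 in GFP with IMQ skin.

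**Figure D2:**
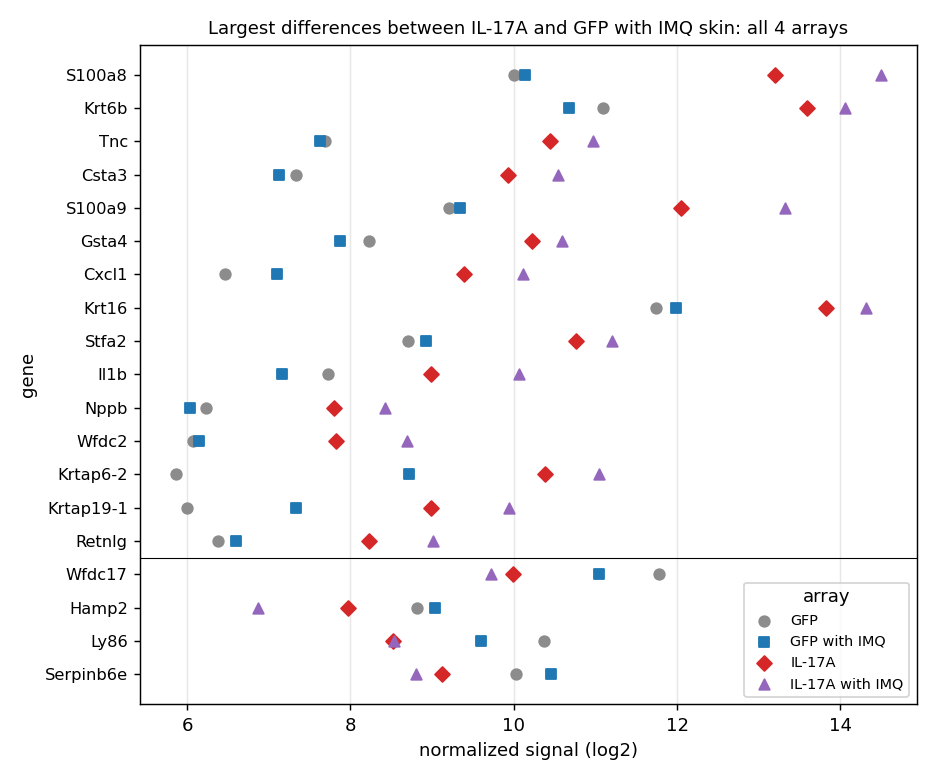
Normalized log2 signal on the 4 arrays for the 15 genes with the largest differences in favour of IL-17A skin (above the line) and the 4 genes higher in GFP with IMQ skin (below it), 1 point an array. For all 15 genes above the line both IL-17A arrays lie to the right of both GFP arrays; the Krtap genes differ in that GFP with IMQ lies far from GFP.

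Chemokine and cytokine genes split. Cxcl1, a chemokine for neutrophils, had a signal of 648 in IL-17A and 66.8 in GFP with IMQ skin, beside 25.3 in GFP and 1020.4 in IL-17A with IMQ skin. It was 4.91-fold higher in IL-17A skin, and GFP with IMQ lay between GFP and IL-17A. Cxcl2, a second neutrophil chemokine, read 75.7 in IL-17A and 0.701 in GFP with IMQ skin, the latter below its limit, so it was at least 1.79-fold higher, and its call ended under 3 alternatives: median scaling, averaging probes, and detection on both arrays. Il1b, an inflammatory cytokine, read 474 in IL-17A, 72.8 in GFP with IMQ, 153 in GFP and 983 in IL-17A with IMQ skin. It was 3.53-fold higher in IL-17A skin, with GFP with IMQ the lowest of the 4 arrays. Il33, an alarmin of epithelial cells, was 2.33-fold higher, at 807 against 262, with GFP skin at 258. Ccl4, a chemokine for several leukocyte types, read 201 against 44.9 (2.26-fold), and Ccl7, a monocyte chemokine, 488 against 159 (2.17-fold). In GFP skin these read 96.6 and 364, above GFP with IMQ on both probes. The Ccl4 call ended with the mean of the gene's probes, since a second probe differed by 0.36.

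These 6 were the only genes of 34 on the inflammatory list past 2-fold, and the list's median was 0.02, close to that of all genes. On the other side of 0 lay Ccl8, a monocyte chemokine (-0.81), and the interleukin genes Il18 (-0.54) and Il1a (-0.46). Thus Il1b and Il33 were higher in IL-17A skin while Il1a and Il18, of the same family, were lower by less than 1.5-fold.

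Keratins and small proline-rich proteins of thickened epidermis were higher in IL-17A skin. Krt6b, a keratin made in wounded and hyperproliferating epidermis, had a signal of 12855 in IL-17A and 1447 in GFP with IMQ skin, beside 2239.5 in GFP and 15672 in IL-17A with IMQ skin. Both IL-17A arrays were far above both others, and the difference was 7.51-fold. Krt16, which pairs with it in stressed epidermis, read 15273 in IL-17A, 3632 in GFP with IMQ, 3605 in GFP and 19454 in IL-17A with IMQ skin, a 3.59-fold difference. Krt6a was 3.02-fold higher, at 469 against 93.1. Gjb2, a connexin of gap junctions, read 2564 in IL-17A, 746 in GFP with IMQ, 316 in GFP and 3716 in IL-17A with IMQ skin. It was 2.79-fold higher in IL-17A skin, and GFP with IMQ stood above GFP. The cornified envelope precursors Sprr2g, Sprr2f and Sprr2e differed by 2.70-fold, 2.24-fold and 2.12-fold, in the same direction. Of 7 measured Sprr2 genes these 3 passed 2-fold, 6 were above 0, and Sprr2a1 was at -0.12. Of 27 measured hyperplasia genes 7 passed 2-fold and 15 passed 1.5-fold, all toward IL-17A skin, and the median was 0.72. The other side of 0 held 6 of the 27, the lowest S100a6 at -0.33. On 24 of the 27 the array with both treatments was the highest. Sprr2 probes, like those of the Lce, Krtap, stefin and Serpinb families, may also read a close relative's transcript.

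The late cornified envelope family split by subfamily. Lce3f, Lce3e and Lce3b, of the subfamily linked to epidermal damage, were 2.57-fold, 2.34-fold and 2.15-fold higher with IL-17A. Lce3f read 1912 in IL-17A and 599 in GFP with IMQ skin, beside 527 in GFP and 3061 in IL-17A with IMQ skin. All 5 measured Lce3 genes were above 0 (median 1.10), and all 12 measured Lce1 genes, of normal differentiation, were below 0 (median -0.42). Lce1e was lowest, at -0.76 with signals of 247 in IL-17A and 397 in GFP with IMQ skin. Of the Lce1 genes 0 passed 2-fold. The 19 listed Lce genes together had a median of -0.34, with 3 past 2-fold toward IL-17A skin. The 31 other cornified envelope and barrier genes had a median of -0.08 with 0 past 2-fold: the suprabasal keratin gene Krt77 stood at -0.61, and Rptn and Tgm1, an envelope protein and the enzyme that cross-links envelopes, at 0.41 and 0.40. Basal keratinocyte genes were level, with a median of 0.02 over 12 and the integrin genes Itga3, Itga6 and Itgb4 at 0.48, 0.32 and 0.26.

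**Figure D3:**
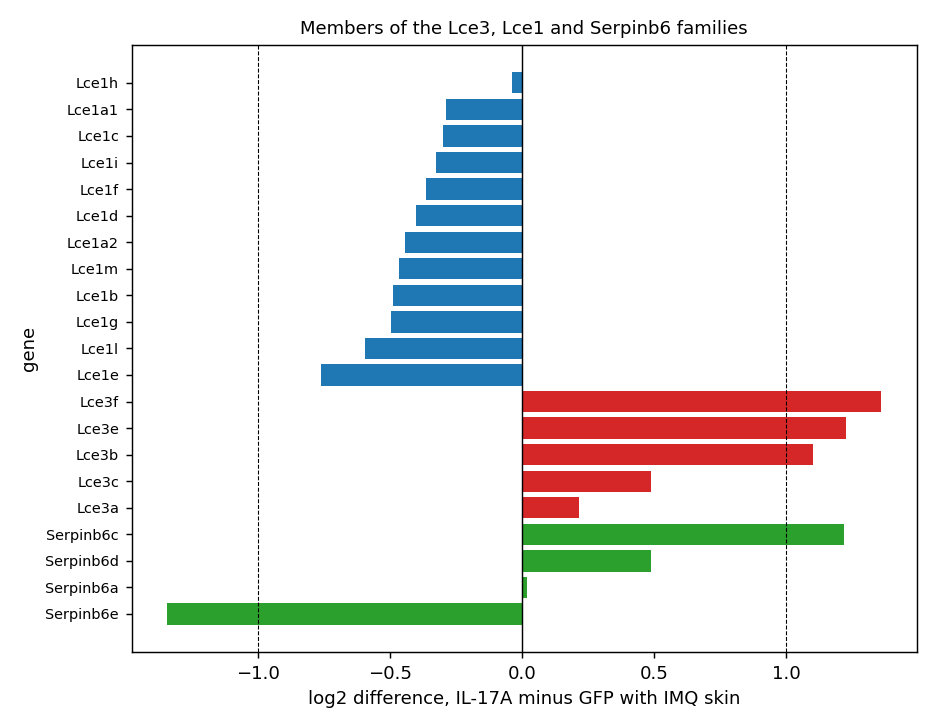
Log2 difference of IL-17A minus GFP with IMQ skin for the measured Lce1 (blue), Lce3 (red) and Serpinb6 (green) genes, 1 bar a gene from 1 array on each side, with dashed lines at 2-fold. All 12 Lce1 bars point to GFP with IMQ and all 5 Lce3 bars to IL-17A, while Serpinb6c and Serpinb6e point opposite ways.

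Proteinase inhibitor genes also split. Csta3, a stefin that inhibits cysteine proteinases, had a signal of 961 in IL-17A and 68.8 in GFP with IMQ skin, beside 103 in GFP and 1399 in IL-17A with IMQ skin. It was 6.99-fold higher, and its relatives Stfa2 and Cstdc4 were 3.57-fold and 2.75-fold higher. Of 10 measured stefin genes 9 were above 0. Among them Csta2, Stfa2l1 and Cstdc6 were below the limit in GFP with IMQ skin, with bounds of 1.66-fold, 1.06-fold and 1.07-fold. Cstdc2 was dim on both arrays, at 0.04. Serpinb6e, an inhibitor of the serpin class, was the gene furthest on the GFP with IMQ side: 526 in IL-17A, 1226 in GFP with IMQ, 1025 in GFP and 376 in IL-17A with IMQ skin, or 2.54-fold higher with IMQ alone. Serpinb6c, of the same cluster, read 587 in IL-17A and 182 in GFP with IMQ skin, 2.33-fold in the other direction.

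Hair shaft and root sheath genes were higher in IL-17A skin, and in GFP with IMQ skin they were already far above GFP skin. Krt27, a keratin of the inner root sheath, had signals of 5177 in IL-17A and 2149 in GFP with IMQ skin, beside 2.86 in GFP and 8316 in IL-17A with IMQ skin. This was a 2.07-fold difference, and GFP skin was below its limit of 12.7. The Krtap6-2 probe, for a matrix protein of the hair shaft, read 1333 in IL-17A, 322 in GFP with IMQ, -6.59 in GFP and 1999 in IL-17A with IMQ skin, 3.17-fold. Krtap19-1, Krt33b, Tchhl1, Krt33a and Krtap5-2 were 3.15-fold, 2.66-fold, 2.57-fold, 2.37-fold and 2.34-fold higher. On the list of 35 measured genes 12 passed 2-fold, each toward IL-17A skin, or 19 without further background correction, and the median was 0.66. On 33 of the 35 the arrays stood in the order GFP, GFP with IMQ, IL-17A, from low to high. Counting every Krtap gene, 18 of the 57 genes higher in IL-17A skin were hair genes, and 17 of the 18 were below the limit in GFP skin. Leaving hair genes out, the count past 2-fold toward IL-17A skin was 39. Vsig8, which is not on the list, stood in the same order, at 425 in IL-17A, 126 in GFP with IMQ, 4.95 in GFP and 746 in IL-17A with IMQ skin. No label gives the phase of the hair cycle at sampling, and the part of these hair gene levels in the other differences was not tested. Follicle growth regulators stood level, with a median of -0.03 over 18 genes: the signalling inhibitor Sostdc1 was at -0.57, Wnt5a at 0.35 and Fgf22 at -0.31. The 9 pigment cell genes had a median difference of -0.09. All 9 were lowest in GFP skin and 7 were highest in IL-17A with IMQ skin, and the list's median log2 levels were 7.03 in GFP, 7.43 in GFP with IMQ, 7.61 in IL-17A and 8.03 in IL-17A with IMQ skin. Tyrp1 and Dct, enzymes of melanin synthesis, stood at -0.26 and -0.24, and the receptor gene Kit at 0.21.

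**Figure D4:**
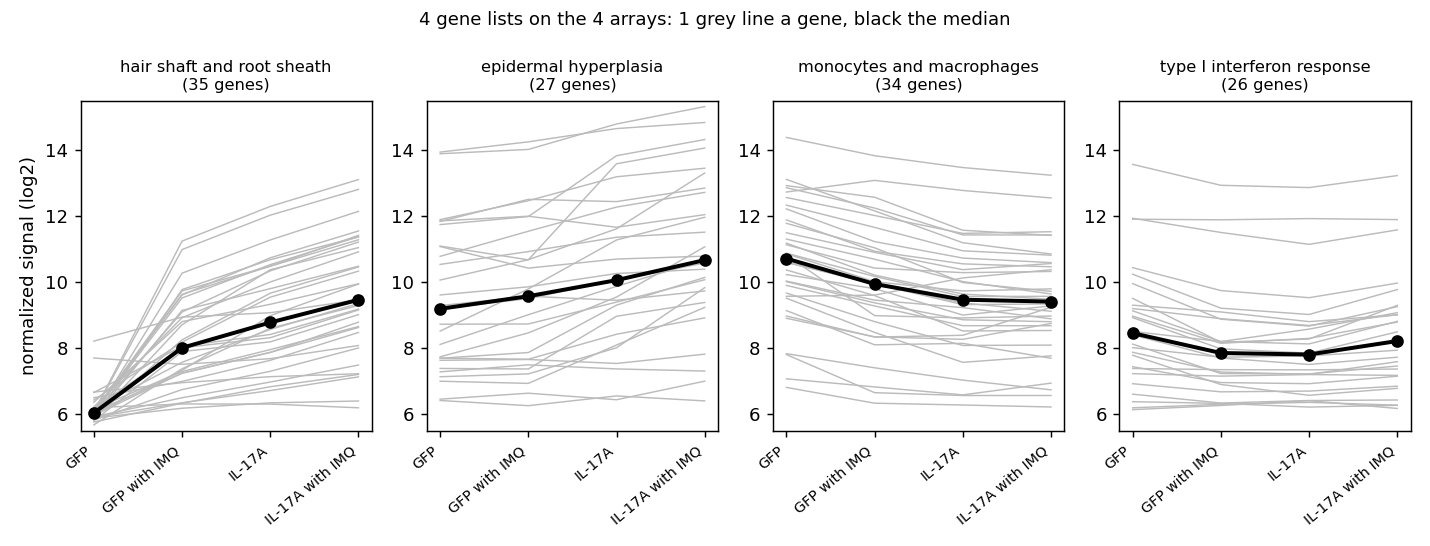
Normalized log2 signal of 4 gene lists on the 4 arrays, with 1 grey line joining the values of a gene and a black line the median of the list, 1 array a group. Hair and hyperplasia medians climb from GFP to GFP with IMQ to IL-17A, macrophage medians descend in that order (10.7, 9.95, 9.47), and interferon medians are nearly equal on the arrays with a single treatment (7.86 and 7.81).

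Neutrophil genes were higher in IL-17A skin, although several defining ones were dim. Retnlg, a resistin-like gene of neutrophils, read 250.3 in IL-17A and 30.6 in GFP with IMQ skin, beside 19.9 in GFP and 444 in IL-17A with IMQ skin, a 3.08-fold difference. The lectin receptor gene Clec4d was 2.38-fold higher, and Fpr2, a receptor for bacterial peptides, 2.08-fold. For Fpr2, IL-17A skin (232) was near GFP skin (209) and GFP with IMQ skin (65.6) lay below both. On this list 7 of 23 measured genes passed 2-fold, each toward IL-17A skin, and the median was 0.62 (0.50 with dim genes at their bound). The count was 12 with the authors' values, 11 with an offset of 16 and 14, with 1 the other way, without further background correction. Beside these 3, the 7 were S100a8, S100a9 and Stfa2, which keratinocytes also make, and Hdc, which mast cells also express. The chemokine receptor gene Cxcr2 stood at 0.87, while Mmp8 was below its limit on both arrays and the granule protease gene Prtn3 was lower in IL-17A skin, at -0.61. In bulk skin, fewer cells of a type and less RNA per cell cannot be told apart. Hdc, the histamine-forming enzyme, was 2.50-fold higher in IL-17A skin (805 against 239, with GFP skin at 408). It was the one gene past 2-fold of 9 on the mast cell list, whose median was 0.29, and on 7 of the 9 GFP with IMQ was the lowest array. The mast cell protease genes Cpa3, Cma1 and Tpsb2 stood at 0.49, 0.49 and 0.48, Mcpt4 at 0.04 (601 against 496), and the receptor gene Mrgprb2 at -0.68. Other detected probes of Cpa3 stood lower, at 0.20 and, for a dimmer one, -0.11, and that of Cma1 at 0.52.

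Macrophage genes lay on the opposite side, lower in IL-17A than in GFP with IMQ skin. Ly86, a partner of a Toll-like receptor homologue, had a signal of 323 in IL-17A and 638 in GFP with IMQ skin, beside 1334 in GFP and 301 in IL-17A with IMQ skin. Wfdc17, a secreted protein of macrophages, read 1011 in IL-17A, 1860 in GFP with IMQ, 3742 in GFP and 771 in IL-17A with IMQ skin. These were 2.10-fold and 2.07-fold higher with IMQ alone, and both treatments alone were below GFP skin. The Wfdc17 call ended under median scaling. Of 34 measured macrophage genes 2 passed 2-fold and 13 passed 1.5-fold, all toward GFP with IMQ skin, and 31 were below 0. The count past 2-fold ran from 1 under median scaling to 4 with an offset of 16 or without further background correction. The median was -0.52. Lyz2, a lysozyme, stood at -0.999, just under the 2-fold line, the lectin gene Cd209f at -0.96 and the sialic acid receptor gene Siglec1 at -0.91. On 30 of the 34 the order was IL-17A below GFP with IMQ below GFP. Stab1, a scavenger receptor, went the other way at 0.52, and Lyve1 was level at -0.07.

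Other immune and connective tissue lists had small differences, with medians below 0. The 14 complement genes had a median of -0.24, with C1qb, Cfp and C1qc at -0.81, -0.73 and -0.71 and Masp1 on the other side at 0.68. The C1q genes are also on the macrophage list, so these lists are not independent. The 20 dendritic and Langerhans cell genes had a median of -0.23 (-0.11 with dim genes at their bound): the class II genes H2-DMa and H2-Eb1 stood at -0.55 and -0.44, and Fscn1, an actin bundler, at 0.66. The 7 phagocyte oxidase and granule protease genes had a median of -0.31, with Prtn3, Rac2 and Cyba at -0.61, -0.39 and -0.38, and 3 eosinophil-linked genes one of -0.35, with Ear3 at -0.50, Ccl24 at -0.35 and Ccl11 at 0.01. T and NK cell genes had a median of -0.16 over 15 (-0.08 with bounds), with Nkg7 and Cd3d both at -0.38. Icos was below its limit in IL-17A skin and at least 1.14-fold higher in GFP with IMQ skin. The 6 B cell genes had a median of -0.10 (-0.05 with bounds), with Blnk at -0.15. Ms4a1 and Cd79b were below their limit in IL-17A skin, and their bounds were only 1.04-fold and 1.10-fold. In these 6 lists 0 genes passed 2-fold. The 33 fibroblast and collagen genes had a median of -0.16 with 0 past 2-fold. Col1a1, a chain of the main dermal collagen, read 1088 in IL-17A, 1823 in GFP with IMQ, 2735 in GFP and 1380.3 in IL-17A with IMQ skin, a difference of -0.93. Ccn5 and Col1a2 stood at -0.66 and -0.63, and on 30 of the 33 genes both single-treatment arrays were below GFP skin.

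**Figure D5:**
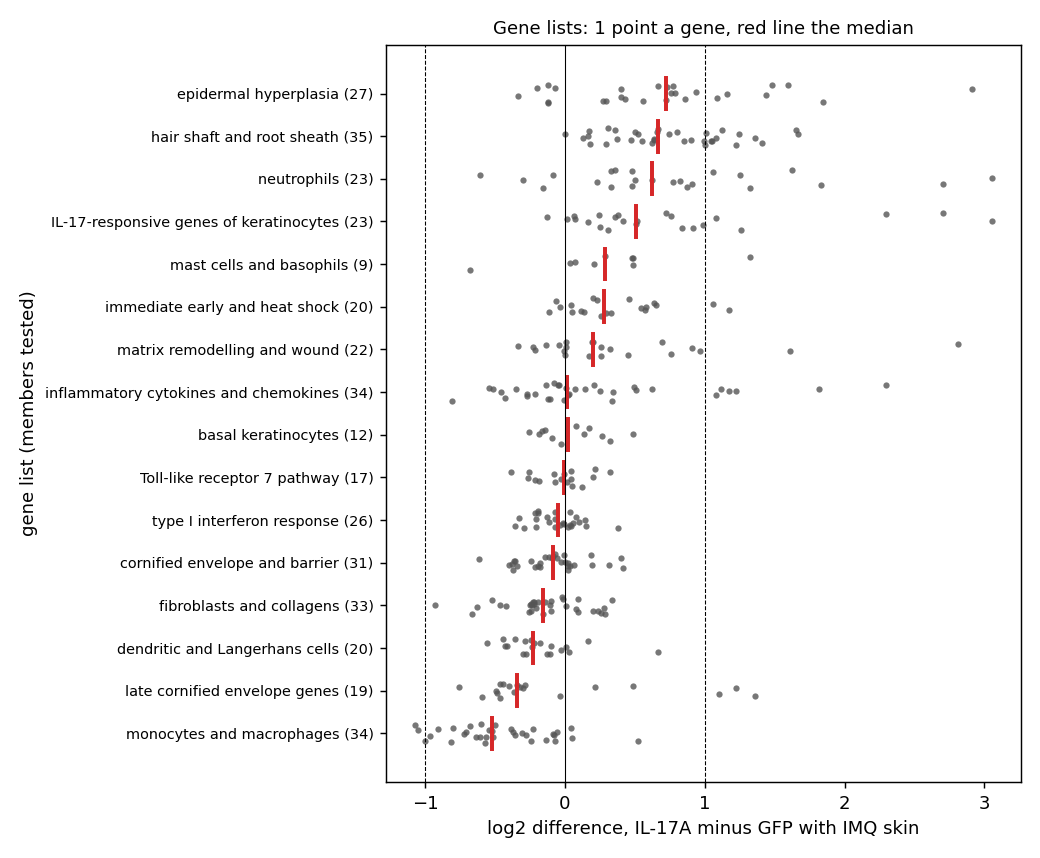
Log2 difference of IL-17A minus GFP with IMQ skin for 16 gene lists, 1 point a measured gene and a red line at the median, from 1 array on each side. Medians run from 0.72 for epidermal hyperplasia to -0.52 for macrophages, with the Toll-like receptor and interferon lists at -0.01 and -0.05.

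Type I interferon genes, which imiquimod is known to induce through plasmacytoid dendritic cells, stood close on the arrays with a single treatment. Of 26 measured genes 0 passed 2-fold or 1.5-fold, and the median was -0.05. Bst2, an interferon-induced restriction factor, had signals of 262 in IL-17A and 207 in GFP with IMQ skin, beside 689 in GFP and 559.7 in IL-17A with IMQ skin. Both treatments alone were thus below GFP skin, as for 23 of the 26 genes. Oas1g, a sensor enzyme for double-stranded RNA, read 367 in IL-17A and 368 in GFP with IMQ skin, beside 974 in GFP skin, a normalized difference of -0.21. The largest differences of the list were 0.38 for Isg15, -0.36 for Lgals3bp and -0.33 for Oasl1. The receptor pathway of imiquimod was also level: 17 genes had a median of -0.01 with 0 past 1.5-fold, Unc93b1, which carries the endosomal receptors, stood at -0.39, Myd88, their adaptor, at 0.32, and Irf5 at -0.26. The receptor gene Tlr7 read 89.4 in IL-17A, 105 in GFP with IMQ, 248 in GFP and 74.4 in IL-17A with IMQ skin. Of 10 plasmacytoid dendritic cell markers on the array 7 were measured, with a median of -0.03 and 0 past 2-fold. The more specific ones were dim: Ccr9 was below its limit on both arrays, and the brightest Siglech probe read 12.0 and 13.4, against limits of 12.6 and 11.6. Cox6a2, which muscle also makes, stood at 0.14.

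Matrix and stress genes held some of the largest single differences. Tnc, which encodes the wound matrix protein tenascin C, had a signal of 1404 in IL-17A and 123 in GFP with IMQ skin, beside 148 in GFP and 1893 in IL-17A with IMQ skin, 7.03-fold. Of its 4 detected probes 1 other was as far apart (2.62) and the remaining ones were dim, so the mean of its probes gave 1.52. Timp1, an inhibitor of matrix metalloproteinases, was 3.05-fold higher (1327 against 334, with GFP skin at 407). These were the 2 of 22 matrix remodelling genes past 2-fold, against 5 with the authors' values, 4 with an offset of 16 and 5 without further background correction, and the list's median was 0.20. GFP with IMQ was the lowest array on 13 of the 22. The list's median log2 levels were 8.16 in GFP, 8.16 in IL-17A and 7.53 in GFP with IMQ skin. Gsta4, a glutathione transferase that removes products of lipid oxidation, read 1199 in IL-17A, 156 in GFP with IMQ, 246 in GFP and 1449 in IL-17A with IMQ skin. It was 5.09-fold higher, while the 25 detoxification genes had a median of -0.01 and the next highest glutathione transferase on that list, Gsta1, stood at 0.43. Hmox1, a heme-degrading stress enzyme, was lowest at -0.86. The sebaceous P450 gene Cyp2g1 stood at -0.73, the lowest of 22 sebaceous and fatty acid genes (median 0.00), with Fabp5 at 0.56 and Cidea at -0.30. Nppb, the precursor of a natriuretic peptide, and Wfdc2 were below the limit in GFP with IMQ and in GFP skin. Nppb was at least 2.92-fold higher and Wfdc2 at least 2.96-fold higher with IL-17A.

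Fos and Fosb, transcription factor genes of the immediate early class, favoured IL-17A skin by 2.25-fold and 2.08-fold. For Fosb the signals were 137 in IL-17A, 27.1 in GFP with IMQ, 251.04 in GFP and 216 in IL-17A with IMQ skin, so GFP with IMQ was the low array. This was so for 14 of 20 immediate early and heat shock genes, whose median was 0.28. Epgn, a ligand of the epidermal growth factor receptor, read 2621 in IL-17A, 1050.4 in GFP with IMQ, 1661 in GFP and 2225 in IL-17A with IMQ skin, 2.08-fold. Its call ended with the mean of the gene's probes, as did that of Vsig8. On the side of IMQ alone, Hamp2, of the hepcidin family of iron hormones, read 197 in IL-17A, 418 in GFP with IMQ, 398 in GFP and 51.2 in IL-17A with IMQ skin, 2.10-fold. It and Lcn2 were the 2 of 14 iron-handling genes past 2-fold, in opposite directions, and the median was -0.10.

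Proliferation and metabolism differed by little. Of 28 cell division genes 24 were above 0, with a median of 0.11 and 0 past 1.5-fold. Aurka, Cdc20 and Rrm2, of mitosis and nucleotide supply, stood at 0.49, 0.44 and 0.39. The 17 glycolysis and hypoxia genes had a median of 0.15, with Egln3, Hif1a and Pfkl at 0.58, 0.48 and 0.38. Of 18 cholesterol synthesis genes (median -0.08) Cyp51, Nsdhl and Dhcr7 stood at -0.35, -0.28 and -0.26. Of 12 clock genes (median -0.11) the output gene Dbp was at -0.83, with signals of 1896 in IL-17A and 2957 in GFP with IMQ skin, Per1 at 0.45 and Arntl at -0.41. In these 4 lists 0 genes passed 2-fold.

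The 57 genes higher in IL-17A skin did not all relate to GFP skin in the same way. Of the 39 outside the hair group, 29 had a GFP level within 1.5-fold of GFP with IMQ, among them S100a8, S100a9, Krt6b, Krt16 and Tnc. In 6, Cxcl1, Gjb2, Lcn2, Lrrc15, Sprr2e and Vsig8, GFP with IMQ was at least 1.5-fold above GFP skin. In 4, Fos, Fosb, Ccl7 and Fpr2, it was at least 1.5-fold below. The IL-17A with IMQ array was the highest of the 4 for 55 of the 57, with Fosb (GFP highest) and Epgn (IL-17A highest) the others. Just inside the 2-fold line stood Lrrc15, Krt34 and Krtap7-1 at 1.01 each, and just outside it Mt2, Krt31 and Saa1 at 1.00, 0.99 and 0.99. On the other side, Lyz2, Cd209f and Slamf9 came closest, at -0.999, -0.96 and -0.94.

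The genes higher in IL-17A skin were often neighbours. By their order in the RefSeq annotation (GRCm38.p6), 33 of 55 placed genes had another of them within 10 protein-coding genes, against 408 of 11913 genes measured (3.42%). Outside the hair group it was 16 of 37, or 15 of 37 when only neighbours that are no hair genes counted. The groups were Cxcl1, Cxcl2 and Epgn; Cstdc4, Csta3 and Stfa2; Lce3b, Lce3e and Lce3f with Tchhl1; S100a8 and S100a9; Sprr2e and Sprr2f; and keratin and Krtap clusters. Neighbours here are mostly relatives from gene families, whose probes may share targets.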

How the data were processed

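The authors deposited 2 tables of the same 4 Illumina mouse bead arrays. The first holds 1 intensity a probe and array, from which background appears subtracted, since 32.3% to 33.7% of values lay below 0. The second holds the authors' normalized log2 values. The programs behind both are not given in the sources used here. Per the labels' protocols, RNA came from the RNeasy kit and biotinylated cRNA from the MessageAmp kit.

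The intensities carried no detection p-values or control probes, so the planned neqc route was replaced by limma 3.58.1 (R 4.3.3): normexp, 50 added, quantile normalization of the 4 arrays, then log2. Values below 0, mirrored at 0, gave a limit that a share of 0.01 of the noise passes (11.6 to 12.7). From 45.2% to 45.8% of probes passed it. The platform annotation named 1 symbol on 34885 probes, more than 1 on 18 and no symbol on 10378; 34807 Entrez identifiers matched RefSeq. A gene was represented by its measured probe with the highest mean, and measured means above the limit on either compared array. A gene counted as higher at a log2 difference of 1 or more with the brighter array above its limit. A dimmer array below its limit gives a lower bound on the fold, taken from whichever is higher, the gene's measured level or the faintest detected level.

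With 1 array a group no test was possible, and the number of arrays limits the precision. The comparison, the 37 gene lists and the alternatives were chosen with earlier results of these data known. Named genes were Il17a, up to 15 with the largest differences on each side, up to 6 called members of a list, and otherwise its 3 largest differences; further ones were picked after their values were seen. The procedure was tested on simulated data. Counts and figures used Python 3.11.15, numpy 2.4.6, pandas 2.3.3 and matplotlib 3.10.9.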

Additional observations from a re-analysis of the deposited data

How the results depend on the processing

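How many genes passed 2-fold varied with the setting, and more passed toward IL-17A than toward GFP with IMQ skin in every setting run. Against 57 genes higher in IL-17A and 4 higher in GFP with IMQ skin, the authors' values gave 135 and 47, an offset of 16 gave 91 and 12, no further background correction 351 and 224, a 1.5-fold threshold 150 and 90, and a 3-fold threshold 17 and 0. The authors' steps are unknown, and the setting without further correction also replaced the offset by a floor of 10, so the cause of these shifts was not tested. The 17 genes at 3-fold include Nppb and Wfdc2, whose lower bounds were 2.92-fold and 2.96-fold. Under median scaling, normalization over 2 arrays, the mean of a gene's probes, detection on both arrays and a noise share of 0.05 the counts ran from 53 to 58 and from 3 to 4. Of the 61 genes, 0 changed sign in any setting. The genes lost were Cxcl2 and Wfdc17 under median scaling, Ccl4, Cxcl2, Epgn and Vsig8 with the mean of probes, and Cxcl2, Nppb and Wfdc2 with detection on both arrays. Dim genes had larger log2 differences without background correction: 3.07 for Cxcl1, 3.60 for Csta3 and 2.48 for Il1b. List medians ran from 0.66 to 0.76 for hyperplasia, 0.66 to 1.04 for hair, 0.38 to 0.83 for IL-17-responsive, 0.57 to 1.46 for neutrophil and -0.60 to -0.45 for macrophage genes. A list with 0 genes past 2-fold in a direction had at most 1 there in any setting run. No paired analysis was possible because each group has 1 array. Leaving out a replicate was not possible for the same reason.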

Other observations

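Probes without a gene name in the annotation held a few large differences of the same lean. Of 3368 such probes above the limit on either array, 12 passed 2-fold toward IL-17A skin and 1 toward GFP with IMQ skin. The first of them, ILMN_2581604, read 555.9 in IL-17A and 24.0 in GFP with IMQ skin, beside -11.04 in GFP and 1110.1 in IL-17A with IMQ skin, a log2 difference of 2.70. These probes were chosen after their values were seen and are unnamed here.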
